A study of Mus musculus with 30 samples.

Results

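The NRF2 target genes Nqo1, Hmox1, Gclc, Gclm, Slc7a11, Txnrd1, Srxn1, Osgin1, Gsr and Me1 were followed through poly-A RNA-seq of whole mouse kidney. The 10 genes were chosen by symbol as classical targets of this factor. Each symbol belonged to 1 row of the count tables, so that 10 of 57133 rows are described. The study set a transgenic genotype (TG), labelled Gsta2-H2BeGFP, against wild type (WT), and its title names the female-biased gene Gsta2 and male proximal tubule cells. There were 6 TG and 6 WT libraries of male kidneys 4 h after ischemia-reperfusion injury (IRI), a halt and return of blood flow through the kidney. Nephrectomy (NX), the removal of a kidney, was the surgical control with 3 TG and 3 WT libraries of males, and the labels give no time for it. The labels give the injured kidneys nephrectomy together with IRI, so surgery of that kind is shared by both sets. Without surgery there were 3 TG and 3 WT libraries of females and 3 TG and 3 WT libraries of males. Strain, age, the promoter of the transgene and the number of founder lines are not given in the sources used here, nor whether libraries stand for single animals. The p-values therefore measure the spread between these libraries.

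NRF2, encoded by Nfe2l2, is a transcription factor that cells keep scarce. The adaptor KEAP1 hands it to the CUL3 and RBX1 ubiquitin ligase for destruction, and oxidants or electrophiles that modify KEAP1, or the autophagy receptor p62 (Sqstm1), let it accumulate. It then pairs with a small Maf protein (MafF, MafG or MafK) on antioxidant response elements, which the repressor BACH1 occupies until haem displaces it. In kidney tubules the targets supply glutathione, reduced thioredoxin and NADPH, and they break down haem and quinones. Several also answer to other factors, such as ATF4 for Slc7a11, so their RNA is no direct reading of NRF2 activity.

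The promoters shown here, 4 of members that rose after injury and that of Gclm, are the windows of members that held one of the stress-response letters searched. They come from RefSeq on build GRCm38.p6, run 5′ to 3′ on the strand of the gene, and cover the 250 bases before an annotated start. Windows were found for 7 of the 10 members (10 windows in all), and not for Hmox1, Gclc and Gsr. The Nqo1 window, both Me1 windows and the other 2 Txnrd1 windows held none of the letters searched. Capitals mark a match on either strand, so that a match on the opposite strand appears as its reverse complement. They mark TGACNNNGC, the core of the antioxidant response element, in Gclm (chr3:122245307-122245556, plus strand) and in the Txnrd1 window that holds it (chr10:82858956-82859205, plus strand). In Srxn1 (chr2:152105274-152105523, plus strand) and Osgin1 (chr8:119436897-119437146, plus strand) they mark TGANTCAGC, a form that also contains the AP-1 letters TGANTCA. Srxn1 held TGANTCA in 2 places, of which the one outside TGANTCAGC is not in capitals. In Slc7a11 (chr3:50443614-50443863, minus strand) they mark TGATGCAAA, a form of the amino acid response element that ATF4 binds.
Srxn1: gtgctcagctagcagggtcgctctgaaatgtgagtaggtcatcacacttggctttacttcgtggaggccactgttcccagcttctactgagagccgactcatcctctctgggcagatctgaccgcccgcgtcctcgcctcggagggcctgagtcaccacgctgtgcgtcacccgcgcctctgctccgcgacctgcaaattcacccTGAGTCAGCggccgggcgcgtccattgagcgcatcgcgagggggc
Txnrd1: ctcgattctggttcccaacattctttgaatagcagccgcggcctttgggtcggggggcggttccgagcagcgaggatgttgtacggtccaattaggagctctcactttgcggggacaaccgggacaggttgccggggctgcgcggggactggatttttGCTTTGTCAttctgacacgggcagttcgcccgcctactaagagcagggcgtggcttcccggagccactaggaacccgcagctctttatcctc
Osgin1: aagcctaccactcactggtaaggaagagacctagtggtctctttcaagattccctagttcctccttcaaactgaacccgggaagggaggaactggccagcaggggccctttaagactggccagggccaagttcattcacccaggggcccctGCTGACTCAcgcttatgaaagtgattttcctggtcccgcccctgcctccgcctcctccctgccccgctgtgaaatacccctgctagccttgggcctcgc
Slc7a11: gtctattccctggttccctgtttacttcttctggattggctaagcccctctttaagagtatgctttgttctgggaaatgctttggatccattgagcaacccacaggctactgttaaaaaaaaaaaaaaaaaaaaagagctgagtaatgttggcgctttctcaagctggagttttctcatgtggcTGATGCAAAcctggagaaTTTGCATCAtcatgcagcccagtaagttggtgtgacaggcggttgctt
Gclm: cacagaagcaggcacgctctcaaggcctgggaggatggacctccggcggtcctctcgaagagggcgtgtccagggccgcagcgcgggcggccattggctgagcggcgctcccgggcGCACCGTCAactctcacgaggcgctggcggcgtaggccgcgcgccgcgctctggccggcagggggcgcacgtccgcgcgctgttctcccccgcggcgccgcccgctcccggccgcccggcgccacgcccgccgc
The Srxn1 match lay 45 to 37 bases upstream of the start and the Osgin1 match 99 to 91 bases upstream. The Txnrd1 match lay 92 to 84 bases and the Gclm match 134 to 126 bases upstream, and Slc7a11 held its letters at 66 to 58 and again at 48 to 40 bases. Among 32851 RefSeq windows of the same length, 10.2% held TGACNNNGC, 1.02% TGANTCAGC, 0.225% TGATGCAAA and 6.75% TGANTCA. The letters TGANTCAGC and TGATGCAAA were added after the sequences had been seen, and a match describes the letters of a window, not a bound site.

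Total counts ran from 49040915 to 91354407 per library. EGFP, which marks the transgene, had 86 to 1294 counts in every TG library and 0 in the WT libraries, except that the library labelled WT IRI replicate 1 held 206. Gsta2 itself was at 61.6 to 87.2 CPM (counts scaled to library size) in TG IRI and 52.6 to 142 CPM in WT IRI libraries. It was at 72.7, 182 and 77.3 CPM in TG NX and 57.6, 79.3 and 74.9 CPM in WT NX libraries. Males without surgery had 41.3, 72.3 and 38.5 CPM in TG and 94.3, 89.2 and 105 CPM in WT libraries, without overlap. Females had 293 to 339 CPM in TG and 301 to 354 CPM in WT libraries. All 12 proximal tubule markers listed were detected in every group, with summed levels from 18600 to 47300 CPM, as the kidney label has it. Adipocyte markers summed to 1360 CPM in WT NX replicate 0, against 15.3 and 18.1 CPM in the other WT NX libraries, and they were also highest within their groups in WT female replicate 1 (405 CPM) and TG male no-surgery replicate 1 (426 CPM). The members' counts and estimates were therefore also computed without those of these 3 libraries and WT IRI replicate 1 that lay in the groups compared or, for IRI against NX in TG, in the fit, where the counts were 5 higher and 1 lower as before. Replicates are numbered from 0. The no-surgery libraries form 1 table and the NX and IRI libraries another, so surgery and table cannot be told apart and no test was made between them.

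By their lengths the 10 genes span a wide range of abundance. Among the injured TG libraries, in TPM (counts scaled by exon length and library), Hmox1 stood at 661 ± 141 TPM, Me1 at 448 ± 40.3, Srxn1 at 368 ± 46.4, Osgin1 at 330 ± 63.3 and Gclc at 322 ± 39.7 (SD, n = 6). Below them came Gsr at 207 ± 26.9 TPM, Txnrd1 at 193 ± 29.7, Gclm at 136 ± 16.1, Nqo1 at 101 ± 21.4 and Slc7a11 at 0.287 ± 0.123. In TG males without surgery Me1 was the most abundant at 454 ± 41.1 TPM, followed by Gclc at 273 ± 51.9, while Hmox1 was at 51.4 ± 8.63 and Slc7a11 at 0.0541 ± 0.0194 (SD, n = 3). Hmox1, Srxn1 and Osgin1 thus lay among the more abundant members only in the injured kidneys of this pair of groups. All other levels below are CPM and are compared within a gene.

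**Figure D1:**
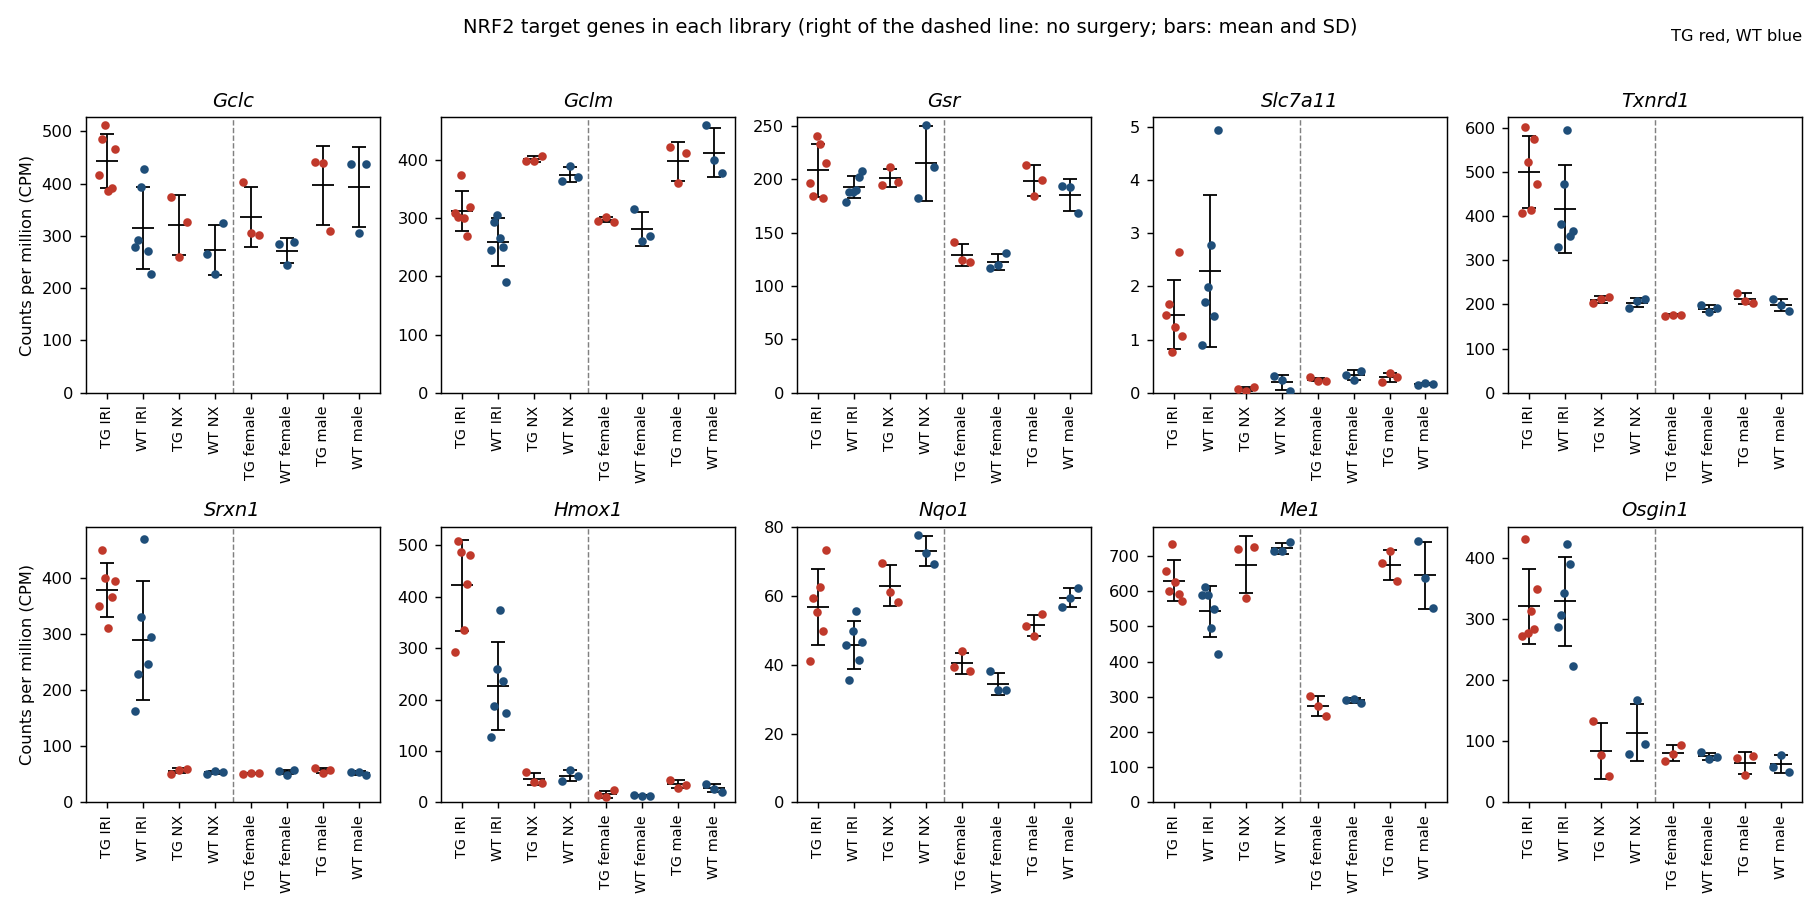
CPM of the 10 NRF2 target genes in every library (points: TG red, WT blue; black bars: mean and SD), with the IRI and NX groups left and the no-surgery groups right of the dashed line. Srxn1 and Hmox1 stand far above every other group after IRI, Slc7a11 does so at a level below 5 CPM, and Me1 and Gsr are lowest in females.

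How these genes stood 4 h after injury in male kidneys was read from IRI against NX. In TG libraries 5 of the 10 rose, against 16.4% of all 19264 genes tested, and 1 fell, against 13%, with 29.4% of all genes called in either direction. In WT libraries 5 rose, against 16.8% of all genes tested, and 3 fell, against 14.1%, with 30.9% called in either direction. Srxn1, Hmox1, Slc7a11, Osgin1 and Txnrd1 rose in TG and in WT libraries, and Gclm fell in both genotypes. Nqo1 and Me1 passed the test as lower in WT libraries, and Gclc and Gsr passed in neither. Slc7a11 was under the count filter when NX libraries were fitted alone, so it entered this fit through the injured libraries, where it is high. Its place in the count, here and in the lists below that hold it, is therefore not independent of its rise. The median change of the members on the log2 scale was 0.85 in TG and 0.62 in WT libraries, beside -0.01 for all genes tested in each. In whole tissue, fewer cells of a type and less RNA per cell cannot be told apart. The summed proximal tubule markers were at 30600 to 37300 CPM in TG IRI and 34800 to 41700 CPM in TG NX libraries, and at 29600 to 34500 CPM in WT IRI and 40800 to 47300 CPM in WT NX libraries. The neutrophil markers summed to 5.47 to 40.6 CPM in TG IRI and 0.496 to 0.88 CPM in TG NX libraries, and to 23.4 to 88.8 CPM in WT IRI and 0.244 to 0.927 CPM in WT NX libraries. The part of these shifts in the members' changes was not tested.

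**Figure D2:**
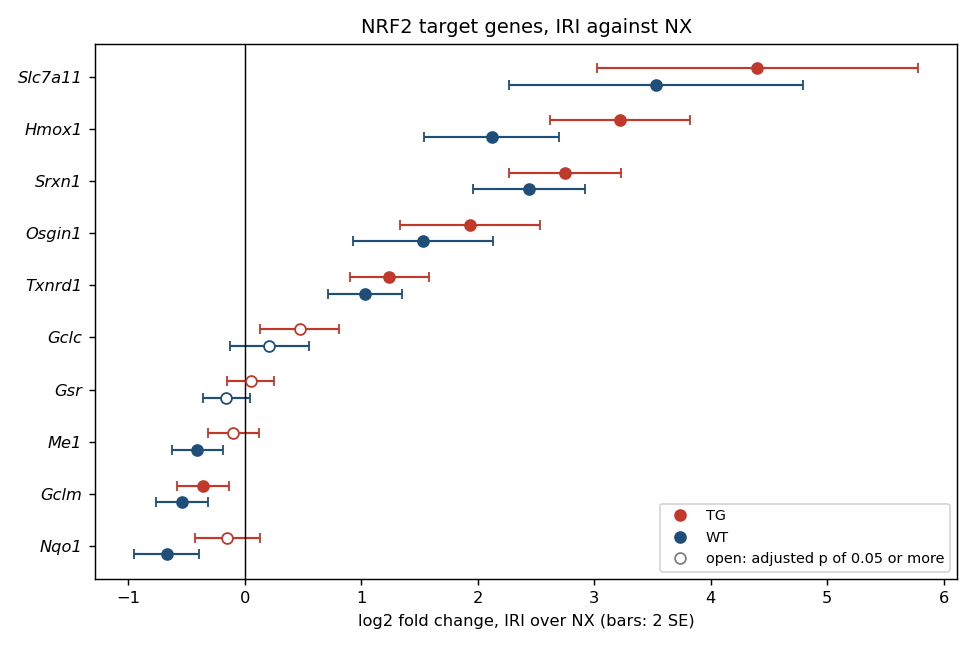
log2 fold change of each member, IRI over NX, in TG (red, upper) and WT (blue, lower) libraries, with bars of 2 SE from edgeR and open points for an adjusted p of 0.05 or more. Slc7a11, Hmox1, Srxn1, Osgin1 and Txnrd1 lie right of 0 in both genotypes with bars that do not reach 0, and Gclm lies left of it in both.

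Both members of the thioredoxin branch rose. Srxn1 (ENSMUSG00000032802, chromosome 2 of GRCm39, 151947436 to 151953296) encodes sulfiredoxin, which returns over-oxidised peroxiredoxins to use. Its lowest, median and highest levels were 311, 381 and 451 CPM in TG IRI libraries, against 51.2, 58.2 and 59.2 CPM in TG NX replicates 0, 1 and 2 (NX libraries are given in this order throughout). In WT libraries they were 163, 271 and 471 CPM after IRI, against 50.2, 55.1 and 54.5 CPM after NX. Every injured library lay above every NX library of its genotype, and WT IRI replicates 0 and 3 marked the ends of a nearly 3-fold range (2.90). The rise was 6.75-fold in TG (log2 fold change 2.75 ± 0.24 SE, edgeR adjusted p = 7.38e-08) and 5.44-fold in WT libraries (2.44 ± 0.24, adjusted p = 2.57e-07). Txnrd1 (ENSMUSG00000020250, chromosome 10, 82669785 to 82733546), the cytosolic thioredoxin reductase, had 407, 498 and 602 CPM (lowest, median, highest) in TG IRI libraries, against 203, 213 and 217 CPM in TG NX libraries. For WT the levels were 329, 375 and 595 CPM after IRI, against 192, 208 and 213 CPM after NX. The groups did not overlap in either genotype. Txnrd1 rose 2.37-fold in TG (1.24 ± 0.17, adjusted p = 1.21e-05) and 2.04-fold in WT libraries (1.03 ± 0.16, adjusted p = 9.17e-05), the smallest rise among the 5 genes.

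Hmox1 (ENSMUSG00000005413, chromosome 8, 75820249 to 75827217) encodes haem oxygenase 1, which opens the haem ring and frees iron, carbon monoxide and biliverdin. It had 293, 453 and 508 CPM (lowest, median, highest) in TG IRI libraries, against 59.4, 39.8 and 36.8 CPM in TG NX replicates 0, 1 and 2. The WT IRI libraries had 127, 212 and 374 CPM, against 42.1, 63.3 and 50.9 CPM in the WT NX libraries. Injured and NX libraries did not overlap in either genotype. The rise was 9.30-fold in TG (3.22 ± 0.30, adjusted p = 2.11e-07) and 4.35-fold in WT libraries (2.12 ± 0.29, adjusted p = 1.53e-05). Without the libraries that stand apart the WT value was 2.04 (adjusted p = 0.000348). Red cell markers moved in the same comparison: the 5 listed (the globin genes and Alas2) summed to 28.6 to 148 CPM in TG IRI and 3.64 to 18.7 CPM in TG NX libraries, and to 110 to 1300 CPM in WT IRI and 35.6 to 119 CPM in WT NX libraries. Their part in the Hmox1 rise was not tested.

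Slc7a11 (ENSMUSG00000027737, chromosome 3, 49846975 to 50398063) encodes the cystine carrier of system xc-, which feeds glutathione synthesis. It rested on few reads. The TG IRI libraries held 48 to 196 counts, against 6, 2 and 8 counts in the TG NX libraries, and the WT IRI libraries held 72 to 294 counts, against 20, 16 and 2 counts in the WT NX libraries. In CPM the median was 1.35 after IRI in TG and 1.84 in WT libraries, and no NX library exceeded 0.309 CPM. The groups did not overlap, and the estimate was 4.40 ± 0.69 in TG (adjusted p = 8.04e-05) and 3.53 ± 0.63 in WT libraries (adjusted p = 0.000288). The fold itself, 21.1 in TG and 11.5 in WT libraries, is imprecise at such counts. It was 4.09 on the log2 scale in WT libraries without the libraries that stand apart (adjusted p = 0.00114).

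Osgin1 (ENSMUSG00000074063, chromosome 8, 120160863 to 120172995) encodes oxidative stress induced growth inhibitor 1. Its lowest, median and highest levels were 272, 298 and 432 CPM in TG IRI libraries, against 133, 76.9 and 42.8 CPM in TG NX replicates 0, 1 and 2. The WT libraries had 224, 325 and 424 CPM after IRI, against 80.0, 167 and 95.1 CPM after NX. The NX libraries varied most here of the genes above 5 CPM, yet none reached the injured range. Osgin1 rose 3.81-fold in TG (1.93 ± 0.30, adjusted p = 7.52e-05) and 2.89-fold in WT libraries (1.53 ± 0.30, adjusted p = 0.0006).

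The glutathione enzymes behaved otherwise. Gclm (ENSMUSG00000028124, chromosome 3, 122039206 to 122064381), the modifier subunit of glutamate-cysteine ligase, had 269, 305 and 374 CPM (lowest, median, highest) in TG IRI libraries, against 398, 399 and 408 CPM in TG NX libraries. WT libraries had 190, 258 and 306 CPM after IRI, against 365, 390 and 371 CPM after NX. All 6 injured libraries lay below the NX libraries in each genotype. Gclm fell by 0.36 ± 0.11 on the log2 scale in TG (adjusted p = 0.021) and by 0.54 ± 0.11 in WT libraries (adjusted p = 0.00123). The TG call was lost when any of the 3 TG NX libraries was left out (adjusted p = 0.05 to 0.0684), with estimates of -0.37 to -0.35, and with replicate number as a block (adjusted p = 0.088).

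Gclc (ENSMUSG00000032350, chromosome 9, 77661817 to 77701767), the catalytic subunit of the same rate-limiting ligase, went the other way in its estimates. It had 386, 441 and 512 CPM (lowest, median, highest) in TG IRI libraries, against 374, 260 and 327 CPM in TG NX libraries, without overlap. In WT libraries it had 227, 285 and 428 CPM after IRI, against 266, 228 and 324 CPM after NX, with overlap. The change was 0.47 ± 0.17 in TG (adjusted p = 0.0506) and 0.21 ± 0.17 in WT libraries (adjusted p = 0.395). The TG value sat at the threshold and passed with DESeq2 (adjusted p = 0.0253) and limma-voom (adjusted p = 0.0378) among other settings, while leaving out 1 library at a time gave adjusted p of 0.0395 to 0.254. Gsr (ENSMUSG00000031584, chromosome 8, 34142551 to 34188191), which regenerates reduced glutathione with NADPH, averaged 208 ± 24.6 CPM in TG IRI and 201 ± 8.68 CPM in TG NX libraries, and 192 ± 10.5 CPM in WT IRI and 215 ± 34.4 CPM in WT NX libraries (SD, n = 6 and 3). Its changes of 0.05 ± 0.10 in TG (adjusted p = 0.757) and -0.16 ± 0.10 in WT libraries (adjusted p = 0.243) did not pass, and the ranges of 2 SE ran from -0.15 to 0.25 and from -0.36 to 0.04.

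Nqo1 (ENSMUSG00000003849, chromosome 8, 108114857 to 108129838), the quinone reductase often used as an NRF2 readout, had 41.1, 57.3 and 73.3 CPM (lowest, median, highest) in TG IRI libraries, against 69.7, 61.1 and 58.4 CPM in TG NX libraries. The WT IRI libraries had 35.6, 46.2 and 55.8 CPM, against 77.8, 72.4 and 69.3 CPM in the WT NX libraries. The WT groups were apart and the TG groups overlapped. Nqo1 fell by 0.67 ± 0.14 on the log2 scale in WT libraries (adjusted p = 0.00121), while the TG value was -0.15 ± 0.14 (adjusted p = 0.486). Me1 (ENSMUSG00000032418, chromosome 9, 86463424 to 86578006), the cytosolic malic enzyme that makes NADPH, had 572, 614 and 733 CPM in TG IRI libraries, against 720, 581 and 725 CPM in TG NX libraries. For WT it had 421, 569 and 612 CPM after IRI, against 713, 713 and 739 CPM after NX. Again only the WT groups were apart. Me1 fell by 0.41 ± 0.11 in WT libraries (adjusted p = 0.00618), with -0.10 ± 0.11 in TG libraries (adjusted p = 0.538). Without the libraries that stand apart, the WT values were -0.56 for Nqo1 (adjusted p = 0.0136), -0.60 for Gclm (adjusted p = 0.00317) and -0.46 for Me1 (adjusted p = 0.0126).

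Of the 10 genes for NRF2 and its regulators, 5 rose in TG and none fell, against 16.4% and 13% of all genes tested. In WT libraries 5 rose and 1 fell, against 16.8% and 14.1%. Maff, a small Maf, moved most, with 103 ± 17.7 CPM after IRI and 0.849 ± 0.465 CPM after NX in TG libraries, and 105 ± 27.1 CPM after IRI and 1.06 ± 0.458 CPM after NX in WT libraries. Its log2 fold change was 6.93 ± 0.35 in TG (adjusted p = 3.99e-11) and 6.63 ± 0.35 in WT libraries (adjusted p = 4.88e-11). Mafk rose 5.52-fold in TG and 5.49-fold in WT libraries, whereas Mafg was at 93.3 and 78.4 CPM in TG and at 90.9 and 83.9 CPM in WT libraries after IRI and NX and did not pass. Nfe2l2 itself rose 1.89-fold in TG (153 ± 18.3 against 80.6 ± 7.12 CPM, adjusted p = 6.3e-05) and 1.80-fold in WT libraries (137 ± 29.3 against 76.1 ± 4.95 CPM, adjusted p = 0.000145). Bach1, the repressor, rose 3.55-fold in TG and 2.63-fold in WT libraries, and Sqstm1 rose 2.98-fold in TG and 1.94-fold in WT libraries. Keap1 fell 1.19-fold in WT libraries (28.6 ± 1.86 against 34.1 ± 1.49 CPM, adjusted p = 0.00855), with 31.1 ± 0.931 against 30.5 ± 0.394 CPM in TG libraries (adjusted p = 0.819). Cul3, Rbx1 and the NRF2 relative Nfe2l1 did not pass in either genotype, with estimates between -0.17 and 0.23.

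**Figure D3:**
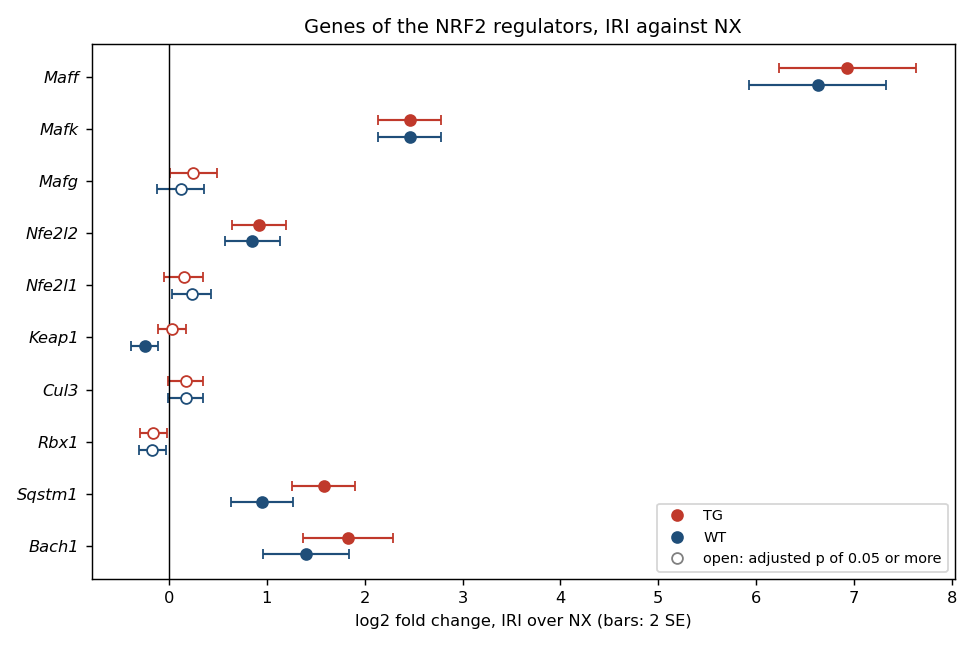
log2 fold change of the genes for NRF2 and its regulators, IRI over NX, in TG (red, upper) and WT (blue, lower) libraries, with bars of 2 SE and open points for an adjusted p of 0.05 or more. The small Maf genes Maff and Mafk moved while Mafg did not pass, and Nfe2l2, Sqstm1 and Bach1 lie right of 0.

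Of 22 other genes linked to NRF2, 3 rose and 1 fell in TG libraries, against 16.4% and 13% of all genes tested. In WT libraries 1 rose and 12 fell, against 16.8% and 14.1%. The medians were -0.02 in TG and -0.28 in WT libraries, beside -0.01 for all genes in each. The WT counts of this list, of the regulators and of the lists below include WT NX replicate 0, high in adipocyte markers. Unlike those of the members, they were not recomputed without it. The rise in both genotypes was that of Akr1b8, an aldo-keto reductase, with 9.74 ± 2.06 against 1.52 ± 0.309 CPM in TG (2.67 ± 0.39, adjusted p = 3.13e-05) and 7.56 ± 3.56 against 2.52 ± 1.49 CPM in WT libraries (1.58 ± 0.36, adjusted p = 0.00246). Gstm1, a mu-class glutathione transferase, fell in both, to 303 ± 48.1 against 430 ± 27.8 CPM in TG and to 241 ± 33.9 against 421 ± 50.4 CPM in WT libraries. G6pdx, the entry enzyme of the pentose phosphate pathway, was at 35.5 ± 2.37 and 36.8 ± 1.29 CPM in TG libraries (adjusted p = 0.749) and fell to 32.9 ± 2.54 CPM after IRI, against 47.8 ± 9.42 CPM after NX, in WT libraries (adjusted p = 0.00035). Aox1, an aldehyde oxidase, passed as lower in WT libraries at a level of 0.400 ± 0.187 against 1.90 ± 2.75 CPM, where the SD of the NX libraries exceeds their mean.

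The pathway lists contain the members named above, and their counts stand against 16.4% of all genes higher and 13% lower in TG and 16.8% higher and 14.1% lower in WT libraries. Where a list's share is near these, its count shows nothing about the list. In the glutathione list of 18 genes 4 rose and 3 fell in TG libraries, and 2 rose and 7 fell in WT libraries. Chac1, which degrades glutathione, rose 83.3-fold in TG (37.3 ± 4.95 against 0.447 ± 0.0481 CPM) and 73.4-fold in WT libraries (21.4 ± 10.7 against 0.288 ± 0.254 CPM), whereas its relative Chac2 fell 1.44-fold and 1.40-fold. In the thioredoxin list of 14 genes 4 rose and 1 fell in TG, and 4 rose and 5 fell in WT libraries. Beside Srxn1 and Txnrd1, Txnip, which binds and inhibits thioredoxin, rose 2.22-fold in TG and 2.31-fold in WT libraries, and Sesn2 rose 1.61-fold and 1.59-fold. In the NADPH list 2 of 13 rose and 1 fell in TG, and 1 rose and 6 fell in WT libraries, with Idh1 at 529 ± 31.3 against 638 ± 141 CPM in TG (adjusted p = 0.0653) and 521 ± 38.1 against 736 ± 79.6 CPM in WT libraries (adjusted p = 0.00137). The second malic enzyme, Me2, stood at 8.36 ± 0.749 against 7.36 ± 1.31 CPM in TG (adjusted p = 0.447) and 10.2 ± 2.44 against 7.45 ± 0.581 CPM in WT libraries (adjusted p = 0.0432). Of 7 haem genes, 2 rose and 1 fell in TG and 2 rose in WT libraries, and the rising gene beside Hmox1 was the haem exporter gene Flvcr1, at 30.8 ± 3.69 against 13.8 ± 1.83 CPM in TG and 34.2 ± 13.2 against 13.6 ± 0.863 CPM in WT libraries.

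The list for ATF4, the factor of the integrated stress response, holds the Atf4 gene itself beside its targets, among them Slc7a11. Of its 10 genes tested, all rose in TG libraries, against 16.4% of all genes, and 8 rose in WT libraries, against 16.8%. Atf3 reached 485 ± 102 CPM after IRI in TG, against 1.06 ± 0.309 CPM after NX, and 686 ± 150 CPM in WT, against 0.602 ± 0.419 CPM. Trib3 had 10.4 ± 2.52 against 0.608 ± 0.147 CPM in TG and 7.71 ± 3.17 against 0.651 ± 0.382 CPM in WT libraries. The median change of the list was 2.46 in TG and 2.0 in WT libraries on the log2 scale.

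Whether the change after injury differed between the genotypes was tested by the interaction of genotype and injury. All 10 estimates were above 0, that is, higher in TG than in WT, with a median of 0.31 beside 0.00 for all genes. They come from the same libraries and are not independent. The medians of the regulators, the other genes linked to NRF2 and the pathway and ATF4 lists, some holding members, were 0.10 to 0.34. The proximal tubule markers had 0.23, while markers of the thick ascending limb, distal convoluted tubule, collecting duct and intercalated cells had -0.53 to -0.18. Whether the members' shift differs from these was not tested. None of the 10 members passed the edgeR test, nor did any of the 19264 genes, so the share called was 0%. Before adjustment 2 members and 1848 of all genes had p under 0.05. DESeq2 and limma-voom called 0 members, with 41 genes called in all by DESeq2 and 0 by limma-voom. Hmox1 had the largest of the estimates resting on many reads, 1.10 ± 0.36 (adjusted p = 0.402), and Nqo1 had 0.53 ± 0.20 (adjusted p = 0.445). Slc7a11 was at 0.87 ± 0.85 and Me1 at 0.31 ± 0.15. The range of 2 SE ran from 0.37 to 1.83 for Hmox1 and from -0.28 to 0.90 for Srxn1.

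TG and WT kidneys were also compared directly after IRI, the comparison that the study's design names, made to catch early events. None of the 10 members passed the edgeR test, in a comparison that called 0.0701% of 17111 genes, 0.00584% higher and 0.0643% lower. Before adjustment 5 had p under 0.05, as had 2413 of the 17111 genes. Hmox1 had 293, 508, 488, 336, 425 and 482 CPM in TG replicates 0 to 5, and 127, 187, 260, 374, 237 and 174 CPM in WT replicates 0 to 5. In 4 of 6 TG libraries it lay above every WT library, and the groups overlapped through WT replicate 3, whose 374 CPM exceeded TG replicates 0 and 3. The difference was 0.89 ± 0.21 (1.85-fold, adjusted p = 0.126). Gclc had 386, 441 and 512 CPM (lowest, median, highest) in TG and 227, 285 and 428 CPM in WT libraries, with 3 TG libraries above every WT library. Its difference was 0.48 ± 0.13 (1.40-fold, adjusted p = 0.172).

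These calls hung on WT IRI replicate 3 and on the tool. Without that library Hmox1 was at 1.08 (edgeR adjusted p = 0.0314) and Gclc at 0.58 (adjusted p = 0.0491). That fit called 109 of 17388 genes in all, against 12 of 17111 with the library. DESeq2 on all 12 libraries called Hmox1 (0.89, adjusted p = 0.00325) and Gclc (0.49, adjusted p = 0.0286) among 363 genes, while limma-voom called 0 members. Over the libraries left out in turn the adjusted p ran from 0.0314 to 0.283 for Hmox1. Leaving out WT IRI replicate 1, the WT library with EGFP counts, gave 0.84 for Hmox1 (adjusted p = 0.166) and 0.46 for Gclc (adjusted p = 0.206). The other estimates were 0.38 ± 0.19 for Srxn1, 0.30 ± 0.13 for Nqo1, 0.26 ± 0.10 for Gclm, 0.25 ± 0.14 for Txnrd1, 0.20 ± 0.09 for Me1, 0.10 ± 0.08 for Gsr, -0.04 ± 0.14 for Osgin1 and -0.65 ± 0.38 for Slc7a11, with adjusted p of 0.289 to 0.925. The members' median was 0.26, beside -0.01 for all genes tested.

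Several library measures tended to differ between the genotypes after IRI, with ranges that overlapped. Of the red cell and of the neutrophil markers, 0 of 5 tested were called in this comparison. The red cell sum was 28.6 to 148 CPM in TG and 110 to 1300 CPM in WT libraries. It was already lower in TG after NX, at 3.64 to 18.7 CPM against 35.6 to 119 CPM in WT NX libraries. The 8 neutrophil markers summed to 5.47 to 40.6 CPM in TG IRI and 23.4 to 88.8 CPM in WT IRI libraries, with Mpo and Elane at 0 in the TG and Elane at 0 in the WT libraries. Mitochondrial transcripts took 9.5 to 10.8% of counts in TG and 10.1 to 16.3% in WT libraries, with 15 and 16.3% in WT replicates 4 and 5. The macrophage sums of TG libraries, at 105 to 127 CPM, lay within those of WT libraries, at 97.5 to 147 CPM. The part of these measures in the Hmox1 and Gclc differences was not tested.

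Within each genotype the injured libraries differed among themselves, and several members moved together. WT IRI replicate 3 was the highest of its group in 6 of the 10 members, while replicate 0 was the lowest in 5 and replicate 5 in 4. In TG IRI, replicates 1 and 2 were the highest in 4 members each and replicate 0 the lowest in 4. The highest over the lowest library was 1.73 in TG and 2.96 in WT for Hmox1, 1.45 in TG and 2.90 in WT for Srxn1, and 1.33 in TG and 1.89 in WT for Gclc. For Slc7a11 it was 3.47 in TG and 5.51 in WT, where the top WT library was replicate 5, the one with the most red cell and neutrophil transcripts (1300 and 88.8 CPM) and the lowest Gclm, Gclc, Me1 and Osgin1. Among the injured WT libraries Slc7a11 thus differed from Hmox1 and Srxn1 chiefly in the rank of replicate 5. Replicate 0 was the lowest WT library for Slc7a11, Hmox1 and Srxn1 alike.

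**Figure D4:**
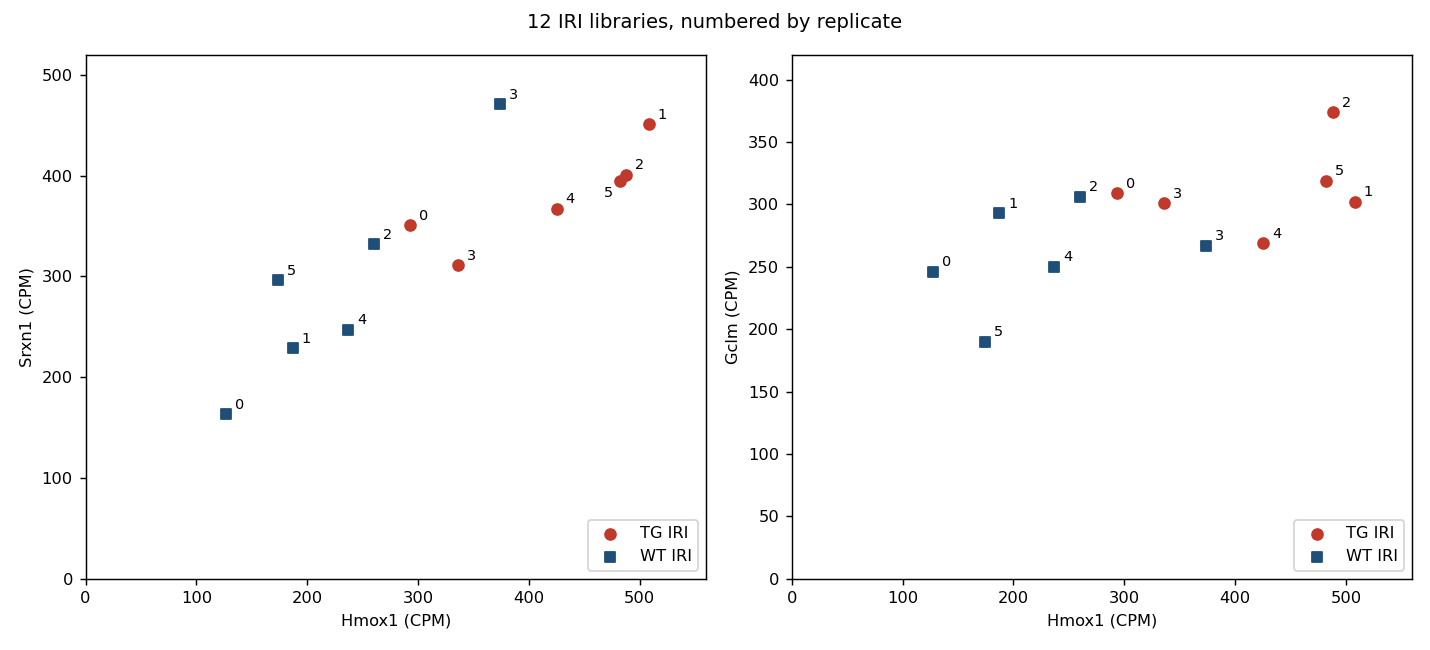
Hmox1 (x axis, CPM) against Srxn1 (left) and Gclm (right) in the 12 IRI libraries, TG as red circles and WT as blue squares, numbered by replicate. WT replicates 0 and 3 mark the ends of the WT range for Hmox1 and Srxn1, and Gclm spans 190 to 374 CPM without following Hmox1 as closely.

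The genes most like a member over the 12 IRI libraries, by Pearson correlation of log2 CPM centred within each genotype among 10312 genes of at least 5 CPM, were Ctdsp2 (r = 0.96), Nol9 and Yars (0.95 each) for Hmox1. They were Clic1 (0.96), Rtn4 and Rassf8 (0.95 each) for Srxn1, Nars and Yars (0.97 each) and Mast4 (0.96) for Txnrd1, and Xrn1 (0.97), Lnpep (0.91) and Klhl9 (0.90) for Nqo1. Yars and Nars encode the transfer RNA synthetases for tyrosine and asparagine. Between members the same measure was 0.87 for Hmox1 and Srxn1, 0.86 for Hmox1 and Txnrd1, 0.84 for Srxn1 and Txnrd1 and 0.81 for Gclm and Me1, but 0.35 for Hmox1 and Gclm, 0.06 for Hmox1 and Gsr and -0.38 for Srxn1 and Me1. These values describe 12 libraries whose points share depth and tissue makeup and were not tested.

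The comparison of females with males without surgery asks how the targets differ between the sexes. In TG libraries 6 of the 10 members were lower in females, against 11.3% of all 19126 genes tested, and none was higher, against 9.87%, with 21.2% of all genes called in either direction. WT libraries gave 6 lower, against 11.3%, and none higher, against 10.1%, with 21.3% called in either direction. Me1, Hmox1, Gsr, Gclm and Nqo1 fell in both genotypes, Txnrd1 passed in TG and Gclc in WT libraries. The members' median on the log2 scale was -0.31 in TG and -0.54 in WT libraries, beside 0.02 and 0.03 for all genes.

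**Figure D5:**
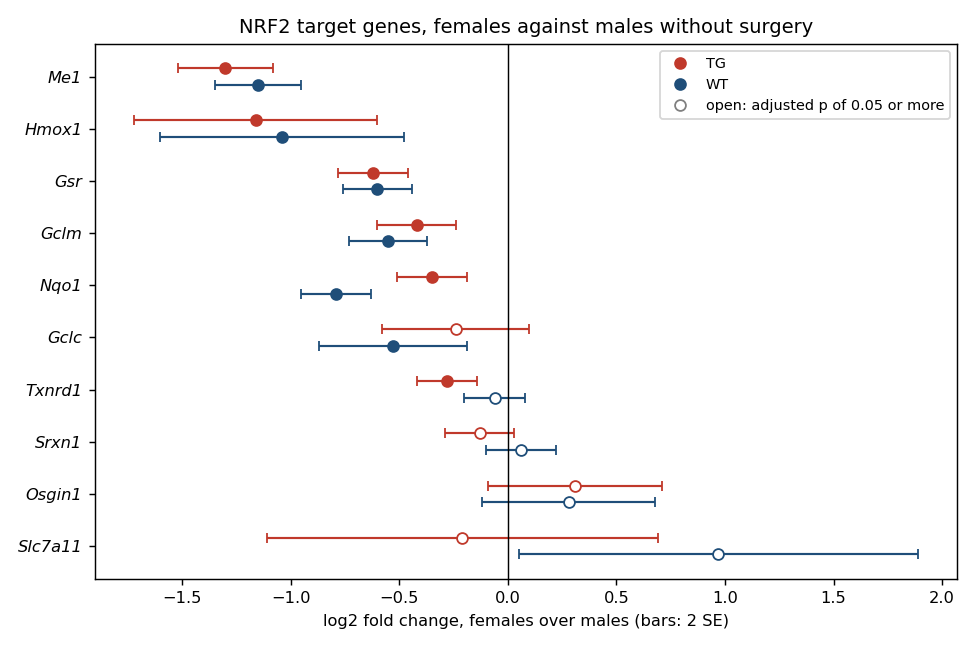
log2 fold change of each member, females over males without surgery, in TG (red, upper) and WT (blue, lower) libraries, with bars of 2 SE from edgeR and open points for an adjusted p of 0.05 or more. Me1, Hmox1, Gsr, Gclm and Nqo1 lie left of 0 in both genotypes, and Srxn1, Osgin1 and Slc7a11 did not pass.

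Me1 showed the widest gap between the sexes. TG females had 303, 273 and 246 CPM, against 681, 714 and 629 CPM in TG males, and WT females had 292, 294 and 282 CPM, against 744, 638 and 552 CPM in WT males. Every female library lay below every male library of its genotype, and below every NX and IRI library too, although those belong to the other table. Me1 fell 2.47-fold in TG (-1.30 ± 0.11, adjusted p = 4.3e-06) and 2.23-fold in WT females (-1.15 ± 0.10, adjusted p = 9.92e-06). Gsr had 141, 124 and 122 CPM in TG females, against 213, 184 and 199 CPM in TG males, and 117, 120 and 131 CPM in WT females, against 194, 193 and 168 CPM in WT males. It fell 1.54-fold in TG (adjusted p = 0.000238) and 1.51-fold in WT females (adjusted p = 0.000283), so that a gene which did not pass after injury was among those set apart by sex.

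Hmox1 was scarce in uninjured kidneys. TG females had 14.2, 9.71 and 23.3 CPM, against 43.3, 28.2 and 33.7 CPM in TG males, and WT females had 14.6, 13 and 12.7 CPM, against 36.1, 26.8 and 20.3 CPM in WT males. The sexes did not overlap within a genotype. It fell 2.23-fold in TG (-1.16 ± 0.28, adjusted p = 0.0106) and 2.06-fold in WT females (-1.04 ± 0.28, adjusted p = 0.018). The WT call was lost when female replicate 1 (adjusted p = 0.0552), female replicate 2 (0.061) or male replicate 0 (0.0843) of WT was left out. Nqo1 was at 40.5 ± 3.08 CPM in TG females and 51.5 ± 3.16 CPM in TG males, and at 34.5 ± 3.15 CPM in WT females and 59.6 ± 2.7 CPM in WT males (SD, n = 3 each). Its change was -0.35 ± 0.08 in TG (adjusted p = 0.0101) and -0.79 ± 0.08 in WT libraries (adjusted p = 3.22e-05), and the TG call was lost without TG female replicate 2 (adjusted p = 0.0633). The interaction of genotype and sex for Nqo1 was 0.44 ± 0.12 and did not pass (edgeR adjusted p = 0.381). That interaction called 0 members by edgeR, DESeq2 and limma-voom. Over all 19126 genes it called 0.00523% by edgeR, 81 genes by DESeq2 and 1 by limma-voom. By edgeR 2 members and 1641 of the 19126 genes were under an unadjusted p of 0.05.

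Of the subunits of glutamate-cysteine ligase, Gclm fell in females of both genotypes and Gclc in WT females. Gclm was at 297 ± 4.46 CPM in TG females and 398 ± 33.7 CPM in TG males (-0.42 ± 0.09, adjusted p = 0.00627), and at 282 ± 29.7 CPM in WT females and 413 ± 42.3 CPM in WT males (-0.55 ± 0.09, adjusted p = 0.00109). Gclc was at 336 ± 57.6 CPM in TG females and 397 ± 75.3 CPM in TG males (-0.24 ± 0.17, adjusted p = 0.356), and at 272 ± 24.3 CPM in WT females and 393 ± 76.3 CPM in WT males (-0.53 ± 0.17, adjusted p = 0.0387). The WT call for Gclc was lost without any of WT female replicates 0, 1 and 2 and without WT male replicate 0 or 2 (adjusted p = 0.0724 to 0.136). With the libraries high in adipocyte markers left out, 4 members were lower in WT females and 6 in TG females. In WT females Hmox1 (-1, adjusted p = 0.0552) and Gclc (-0.45, adjusted p = 0.134) did not pass. Over all genes 3405 of 19811 were then called in WT and 3509 of 19787 in TG libraries. With every library the calls were 4077 and 4054 of 19126. The cause of the lost calls was not tested.

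Of the 5 genes that injury raised, Srxn1, Osgin1 and Slc7a11 passed in neither genotype between the sexes. Srxn1 was at 51.9 ± 0.914 CPM in TG females and 56.9 ± 4.90 CPM in TG males, and at 54.2 ± 4.34 CPM in WT females and 52.0 ± 3.52 CPM in WT males. Its ranges of 2 SE ran from -0.30 to 0.03 in TG and from -0.10 to 0.22 in WT libraries. Txnrd1 had 173, 176 and 177 CPM in TG females, against 227, 208 and 204 CPM in TG males, and fell by 0.28 ± 0.07 on the log2 scale (adjusted p = 0.00835). In WT libraries it was at 191 ± 7.32 CPM in females and 199 ± 13.4 CPM in males (adjusted p = 0.572). Osgin1 was at 80.5 ± 12.8 CPM in TG females and 64.7 ± 17.5 CPM in TG males, and at 75.3 ± 5.94 CPM in WT females and 62.1 ± 14.8 CPM in WT males, and passed in neither (adjusted p = 0.306 and 0.372). Slc7a11 held 14 to 25 counts in female and 8 to 22 counts in male libraries, with estimates of -0.21 ± 0.45 in TG and 0.97 ± 0.46 in WT libraries (adjusted p = 0.796 and 0.166).

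Cell type markers moved with sex as well. The 12 proximal tubule markers summed to 20600 to 24500 CPM in TG females and 34700 to 42400 CPM in TG males, and to 18600 to 23000 CPM in WT females and 33200 to 42700 CPM in WT males. Of these markers 6 were called lower in females of each genotype, against 11.3% of all genes, while 2 in TG and 1 in WT were called higher. That list holds Kap and Slc7a13, known for male-biased expression in mouse kidney. The thick ascending limb markers summed to 8910 to 9470 CPM in TG females and 5070 to 5620 CPM in TG males, and to 8960 to 10400 CPM in WT females and 5120 to 7490 CPM in WT males. Markers of the distal convoluted tubule (4 of 4) and of intercalated cells (5 of 5) were also called higher in females of each genotype, against 9.87% of all genes in TG and 10.1% in WT. The part of these shifts in the members' differences was not tested.

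Of the regulators, the levels are given here for a pair that was chosen after the values were seen. Sqstm1 fell 1.59-fold in TG females (411 ± 9.77 against 652 ± 12.7 CPM, adjusted p = 2.38e-05) and 1.55-fold in WT females (389 ± 28.7 against 602 ± 30.4 CPM, adjusted p = 3.06e-05). Nfe2l2 was higher in females, at 123 ± 8.14 against 98.9 ± 8.26 CPM in TG (adjusted p = 0.00888) and 109 ± 0.709 against 91.2 ± 5.11 CPM in WT libraries (adjusted p = 0.0246). Its RNA thus lay in the opposite direction to that of the 5 targets that fell in both genotypes. In all, 2 of the 10 regulator genes rose and 2 fell in each genotype. Of all genes tested, 9.87% were higher and 11.3% lower in TG females, and 10.1% and 11.3% in WT females. The other calls were Nfe2l1, higher in females of both genotypes, Keap1, lower in TG females, and Cul3, lower in WT females.

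The pathway lists contain members, and their counts between the sexes stand against 9.87% of all genes higher and 11.3% lower in TG and 10.1% higher and 11.3% lower in WT females. Some lie near those shares, such as the thioredoxin list in WT females. Of 18 glutathione genes 8 fell in TG females and none rose, and 7 fell and 1 rose in WT females, with glutathione synthetase (Gss) at 201 ± 5.0 against 281 ± 28.1 CPM in TG and 193 ± 18.4 against 297 ± 10.9 CPM in WT libraries. Among 13 NADPH genes 5 fell and 1 rose in TG, and 3 fell and 1 rose in WT females, where the mitochondrial malic enzyme Me3 stood at 62.9 ± 5.29 against 47.6 ± 3.78 CPM in TG and 66.8 ± 4.50 against 51.7 ± 3.82 CPM in WT libraries, higher in females. The thioredoxin list gave 4 of 14 lower in TG females, and 1 lower and 1 higher in WT females, with Prdx1 at 577 ± 36.8 against 841 ± 30.8 CPM in TG and 606 ± 33.7 against 831 ± 83.7 CPM in WT libraries. Of 7 haem genes 2 rose and 2 fell in TG females, and 2 rose and 1 fell in WT females. There, Alas1, the first enzyme of haem synthesis, rose 1.90-fold in TG and 1.91-fold in WT females, and Flvcr1 rose 1.79-fold and 2.26-fold. Of the 10 genes of the ATF4 list 1 fell in TG females and 2 rose in WT females. In WT females Slc3a2, the partner chain of Slc7a11, was at 280 ± 13.6 against 208 ± 16.7 CPM.

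The 23 other genes linked to NRF2 gave 2 higher and 9 lower in TG females, and 2 higher and 7 lower in WT females, against the same shares of all genes, which the counts of higher genes lie near. The carbonyl reductase gene Cbr1 rose 8.01-fold in TG (293 ± 7.06 against 36.5 ± 3.55 CPM) and 8.80-fold in WT females (324 ± 76.4 against 36.8 ± 0.374 CPM). The anion exporter gene Abcc2 fell to 199 ± 33.1 against 313 ± 87.0 CPM in TG and to 130 ± 12.8 against 313 ± 37.2 CPM in WT libraries. Its relative Abcc4 rose 1.66-fold in each genotype.

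Away from injury, genotype moved no member past the test. After NX 9 of the 10 genes were tested, Slc7a11 being under the count filter, and 0 were called, in a comparison that called 0.0117% of all genes, 0.00585% in each direction. The smallest adjusted p was 0.733, and no member had an unadjusted p under 0.05, which 1157 of 17100 genes had. In TG against WT males without surgery 0 of 10 were called (0.00523% of all genes), with 1 member, Nqo1, and 998 of 19126 genes at an unadjusted p under 0.05. In females 0 of 10 were called (0.0418%), with Nqo1 and 1738 genes at an unadjusted p under 0.05. DESeq2 and limma-voom called 0 members in each of the 3. Over all genes DESeq2 called 45 after NX, 14 in males and 221 in females, and limma-voom called 2, 0 and 24. Nqo1 stood at 51.5 ± 3.16 CPM in TG males and 59.6 ± 2.7 CPM in WT males (-0.21 ± 0.08, adjusted p = 0.916), and at 40.5 ± 3.08 CPM in TG females and 34.5 ± 3.15 CPM in WT females (0.23 ± 0.08, adjusted p = 0.427). Hmox1 had 45.3 ± 12.3 CPM in TG and 52.1 ± 10.7 CPM in WT libraries after NX (-0.20 ± 0.20, adjusted p = 0.853), with a range of 2 SE from -0.61 to 0.20.

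Set in order over the 8 groups, Srxn1 and Txnrd1 put both injured groups first, with every injured library above every other library, and the same held for Hmox1, Osgin1 and Slc7a11. Below them, the neighbours in the order of Srxn1, from 56.9 CPM in TG males to 51.9 CPM in TG females, overlapped throughout. For Me1 and Gsr the order ended with WT and TG females, each library of which lay below every library of the other 6 groups. Nqo1 was highest after NX, at 63.1 ± 5.90 CPM in TG and 73.2 ± 4.32 CPM in WT libraries, with overlap between neighbours down to the females. Gclc and Gclm overlapped between all neighbours in their order. The order across surgery and no surgery joins tables that were scaled separately.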

How the data were processed

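Poly-A RNA-seq counts of 30 mouse kidney libraries were used in 8 groups set by the labels. Per the submitters' processing notes, reads were handled with fastp 0.23.2, STAR 2.7.0 and featureCounts 2.0.3 on GRCm39, and per the file headers the annotation was Ensembl release 112 with EGFP added. The authors deposited whole-number counts for each gene without scaling, in 1 table for the 12 libraries without surgery and 1 for the 18 NX and IRI libraries. Strandedness and pair counting are not given in the sources used here, and only 37.3 to 41.9% of counts of 10 or more were odd, so halved counts were an alternative. Gene names came from a GENCODE name table (51880 IDs, 90.8%).

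Genes were tested with edgeR 4.0.16 (TMM factors, filterByExpr, quasi-likelihood test, Benjamini-Hochberg adjustment over all genes tested, called at adjusted p under 0.05) in R 4.3.3. IRI against NX and its interaction with genotype used all 18 surgery libraries, TG against WT after IRI its 12, after NX its 6, and the other comparisons all 12 libraries without surgery. CPM and TPM were computed from the deposited counts, with TMM factors within each table for CPM, and log2 CPM with a prior count of 2. The tests were run on simulated data first. Alternatives were other factors, no filter, DESeq2 1.42.0, limma-voom (limma 3.58.1), a replicate block, other sets of libraries, halved counts, leaving out each library and, chosen after seeing the data, leaving out the libraries that stand apart. Of 219 pairs of libraries within a table, none agreed within sampling noise (lowest chi-square per degree of freedom 16.72). The members and lists were chosen with earlier results of these data known. All 10 members and, after IRI, all 10 regulators were named, with up to 4 called genes of each other list that had the largest change in WT libraries and at least 1 CPM, and the 3 genes most like each of 4 members.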

Additional observations from a re-analysis of the deposited data

How the results depend on the processing

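Of 1765 estimates of members under other settings, 1736 kept their side of the threshold, 15 lost the call and 14 gained it. No called estimate reversed (count 0), and 36 uncalled ones, counted within the 1736, changed sign. Of 160 levels under other scalings 45 moved by over 1 SD. With replicate number as a block, no member was called lower after IRI in TG libraries (count 0), since Gclm was at -0.26 (adjusted p = 0.088), and Gclc was called higher (0.54, adjusted p = 0.0288). Of 39 same-numbered pairs of libraries, 10 had correlated deviations over 0.1 (from -0.0256 to 0.265). Pairs with different numbers were not computed for comparison, so whether the replicate numbers pair the libraries cannot be told. After IRI, 2 members were higher in TG than in WT by DESeq2, which called 363 genes in all, against 12 by edgeR and 9 by limma-voom. Leaving out 1 library at a time gave 5 to 6 members higher and 0 to 1 lower after IRI in TG, and 5 higher and 3 lower in WT libraries. It gave 0 to 2 higher and 0 lower in TG against WT after IRI, where the calls over all genes ran from 0 to 109. Leaving 1 out also gave 5 to 6 lower in TG females and 4 to 6 lower in WT females. After IRI, calls over all genes ran from 4194 of 20070 to 5476 of 19176 in TG libraries. In WT libraries they ran from 4537 of 20046 to 6086 of 19160. With every library they were 5661 and 5952 of 19264. Between the sexes they ran from 2893 of 19760 to 3509 of 19787 in TG and from 2862 of 19825 to 3662 of 19819 in WT libraries. With every library they were 4054 and 4077 of 19126. All other counts of members stayed at 0. The cause of these changes was not tested. Slc7a11 rested on 2 to 25 counts in libraries without injury.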
